A study of Homo sapiens with 10 samples.

Results

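The chemokine ligands CXCL2, CXCL8, CXCL10, CXCL16, CCL2, CCL3, CCL4, CCL5, CCL22 and CCL23 were followed in MV4-11 cells with and without a knockout of the transcription factor IRF8. They are 10 of the 19590 genes in the expression table and were taken by their gene symbols. MV4-11 is an established human acute myeloid leukemia (AML) cell line. The Control group held 4 RNA-Seq libraries from MV4-11 cells that had been infected with a control vector, and the IRF8 KO group held 4 libraries from MV4-11 cells in which IRF8 was targeted by lentiviral CRISPR. The KO cells were clones grown out by limited dilution, made with 2 different guides, and the labels do not say which clone each replicate is, so that the KO libraries need not share 1 genotype. Infected cells were selected with puromycin and grown in RPMI with fetal calf serum. No source says that the replicates were separate cultures, so the p-values below measure the spread between these libraries only. The comparison addresses how the RNA of signaling genes in AML cells differs between these KO clones and Control cells. No source says that the Control cells were cloned. The loss of IRF8 and the growth of clones by limited dilution therefore cannot be told apart.

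Chemokines are small secreted proteins that bind G protein-coupled receptors and direct the migration of leukocytes along a gradient. Their families are named after the spacing of the first cysteines, CXC or CC, and the genes of each family sit largely in a cluster of their own. Many chemokine genes are switched on within hours by NF-kappaB or by interferon through IRF and STAT factors, and their short-lived messages are removed by proteins that bind AU-rich elements. IRF8 is an interferon-responsive factor of the myeloid lineage, which binds DNA with an ETS partner such as PU.1 at a composite element, or with other IRF proteins at the interferon-stimulated response element (ISRE).

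IRF8 itself was measured at 36890.9, 15192.3, 43015.5 and 22534.8 normalized counts in Control replicates 1 to 4, and at 6376.8, 2401.0, 12902.7 and 7819.7 in IRF8 KO replicates 1 to 4. A normalized count is a read count divided by the size factor of its library. The highest IRF8 KO library lay below the lowest Control library, and the KO mean was 25.1% of the Control mean. On the log2(normalized count + 1) scale, IRF8 fell by 2.11 with a standard error (SE) of 0.51 (limma, Benjamini-Hochberg adjusted p = 0.0222). The adjusted p was 0.0586 without Control replicate 1, 0.0576 without Control replicate 3 and 0.0529 without IRF8 KO replicate 1. The libraries held 39560072 to 65519047 reads on genes.

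The label of the line was checked against markers. FLT3, the receptor tyrosine kinase that carries an internal duplication in this line, and CD33, a myeloid surface antigen, were present in all libraries, at 39930.9 or more and 2101.25 or more normalized counts. CD14, the co-receptor of mature monocytes, did not exceed 25.6. Of 10 myeloid markers, 5 rose in the KO (CD4, ITGAM, MPO, CD68 and FCGR1A) and 0 fell (limma, adjusted p below 0.05). Among all 13110 genes tested, 8.65% rose and 9.56% fell. The summed level of the 10 markers was 75163.3 to 89524.2 in Control and 125715 to 357055.7 in IRF8 KO. The highest sum is that of IRF8 KO replicate 1, where LYZ, the lysozyme gene, stood at 248604, and the other KO sums reached 142528. With the replicate number as a block CD33 fell (limma adjusted p = 0.0487), and LYZ (0.00213) and CD14 (0.0479) rose. CD14, with a Control mean of 8.03, was tested only through its KO values. Under this block 14.2% of all genes tested rose and 14.6% fell. For other cell types the markers were mixed. CD3D and CD3E of T cells were at most 0.956 and 0.942, and MS4A1 of B cells was at 0 in all libraries, while NKG7, CD79A and CD79B were present in all. The summed T and NK cell list, carried by NKG7, was 2547.8 to 3100.9 in Control and 1063.4 to 2700.3 in IRF8 KO, with 1 of 8 genes tested (NKG7) and 0 called. NKG7 fell under the replicate block (limma adjusted p = 0.0390). GNLY and CD2, too low to be tested, leaned the other way. GNLY was at 1.73 to 5.65 in Control and 5.73 to 20.7 in IRF8 KO, and CD2 at 0.863 to 2.41 and 4.92 to 20.3. CD3G, CD8A and KLRD1 were at most 6.90 in any library. The B cell list, carried by CD79A and CD79B, summed to 479 to 972.1 in Control and 435.8 to 1853.3 in IRF8 KO. CD79A was at 111.7 to 409.7 in Control and 136.4 to 881.3 in IRF8 KO, and CD79B at 285.7 to 459.7 and 268.5 to 1133.45. PAX5 of the same list, too low to be tested, was lower in the KO, at 8.47 to 20.7 in Control and 0 to 3.82 in IRF8 KO. The erythroid list summed to 0.804 to 6.59 in Control and 3.20 to 9.48 in IRF8 KO, with 0 of 5 genes tested. The keratins KRT8 and KRT18 were both lower in the KO, and their list of 6 genes summed to 1492.7 to 3739.2 in Control and 67.1 to 262.7 in IRF8 KO, with COL1A1, COL1A2, COL3A1 and EPCAM adding little. Whether the shift of the myeloid list has a part in any result below was not tested. In these bulk libraries, fewer cells of a type and less RNA per cell cannot be told apart.

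The regulatory DNA in front of the ligands whose values the results turn on is shown first. RefSeq promoter entries of GRCh38.p14 matched 6 of the 10 members (CXCL2, CXCL8, CXCL10, CCL3, CCL22 and CCL23). The 250 bases before the start are printed 5′ to 3′ on the strand of the gene, with matches in capitals. CXCL10 and CCL23 are the members with the largest or most separated differences, CXCL6 is a ligand outside the 10 that passed the test, and CXCL2 is a neutrophil attractant like it.
CXCL10, chr4:76023498-76023747, minus strand: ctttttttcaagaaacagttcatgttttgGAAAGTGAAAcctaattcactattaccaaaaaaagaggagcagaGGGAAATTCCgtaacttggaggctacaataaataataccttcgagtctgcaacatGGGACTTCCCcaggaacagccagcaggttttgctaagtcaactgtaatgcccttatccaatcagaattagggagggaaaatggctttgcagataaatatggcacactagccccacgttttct
CCL23, chr17:36017973-36018222, minus strand: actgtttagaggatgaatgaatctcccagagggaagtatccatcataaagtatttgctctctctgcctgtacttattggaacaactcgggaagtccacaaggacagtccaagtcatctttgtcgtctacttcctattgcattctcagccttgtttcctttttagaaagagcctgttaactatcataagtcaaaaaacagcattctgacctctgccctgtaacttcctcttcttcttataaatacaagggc
CXCL2, chr4:74099196-74099445, minus strand: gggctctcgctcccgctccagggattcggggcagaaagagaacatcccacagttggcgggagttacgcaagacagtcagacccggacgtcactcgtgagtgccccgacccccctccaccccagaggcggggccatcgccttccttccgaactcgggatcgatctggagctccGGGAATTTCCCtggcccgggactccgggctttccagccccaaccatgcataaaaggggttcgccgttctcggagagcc
CXCL6, chr4:73836428-73836677, plus strand: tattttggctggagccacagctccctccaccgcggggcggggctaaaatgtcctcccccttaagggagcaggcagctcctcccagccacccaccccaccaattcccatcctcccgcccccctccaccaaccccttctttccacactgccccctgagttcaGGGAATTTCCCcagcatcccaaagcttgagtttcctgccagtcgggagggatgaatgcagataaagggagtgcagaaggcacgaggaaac

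Windows of 300 bases, from 250 before to 50 after the start, were searched on both strands. The letters were GAAANNGAAA for the ISRE, GGAANNGAAA for the ETS-IRF composite element and GGGRNWYYCC for the NF-kappaB consensus. R is A or G, W is A or T, Y is C or T and N is any base. CXCL10 held an ISRE match, GAAAGTGAAA, 221 to 212 bases upstream of its start. It also held NF-kappaB matches at 177 to 168 bases (GGGAAATTCC) and at 122 to 113 bases (GGGACTTCCC) upstream. CXCL2 held GGGAATTTCC at 78 to 69 bases upstream, overlapped by a match on the other strand at 77 to 68, and CXCL6 held the same letters at 90 to 81. CCL22 held GGGGGTCCCC 185 to 176 bases upstream. The windows of CXCL8, CCL3 and CCL23 held no full match to these letters. CXCL8 held tggaatttcc, which differs from the NF-kappaB consensus in its first base only. Sites with a letter off were not searched for. Among all 35116 promoter entries, 3.57% held an ISRE match, 2.82% an ETS-IRF match and 5.91% an NF-kappaB match. These are matches of letters and not measured binding.

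Of the 10 ligands, 9 averaged 10 or more normalized counts across the 8 libraries and were tested, and CCL22 was not. CXCL10 and CXCL2 reached this mean only through the KO group, since their Control means were 6.70 and 9.11. The counts and the median below include both. In the fit across all 13110 genes tested (limma, Benjamini-Hochberg adjusted p below 0.05), 0 of the 9 ligands were called higher and 0 lower, where 8.65% of all genes tested were called higher and 9.56% lower. At an unadjusted p below 0.05, limma gave 2 of the 9, CXCL10 and CCL23, beside 4143 of all 13110 genes tested. On the recovered reads, edgeR called 0 and DESeq2 called 1, CCL23. The thresholds of the study (p below 0.01 and a 2-fold change) were applied to the limma p-values, whereas the study used DESeq2 p-values. Counted so, 0 were higher against 4.78% of all genes, and 0 lower against 6.12%. These counts need not be those that the rule gives with DESeq2. The fold changes of the 9 lay on both sides of zero, 5 above and 4 below, with a median of 0.15 on the log2 scale, beside a median of -0.00094 over all genes tested, of which 6546 lay above and 6564 below zero.

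**Figure D1:**
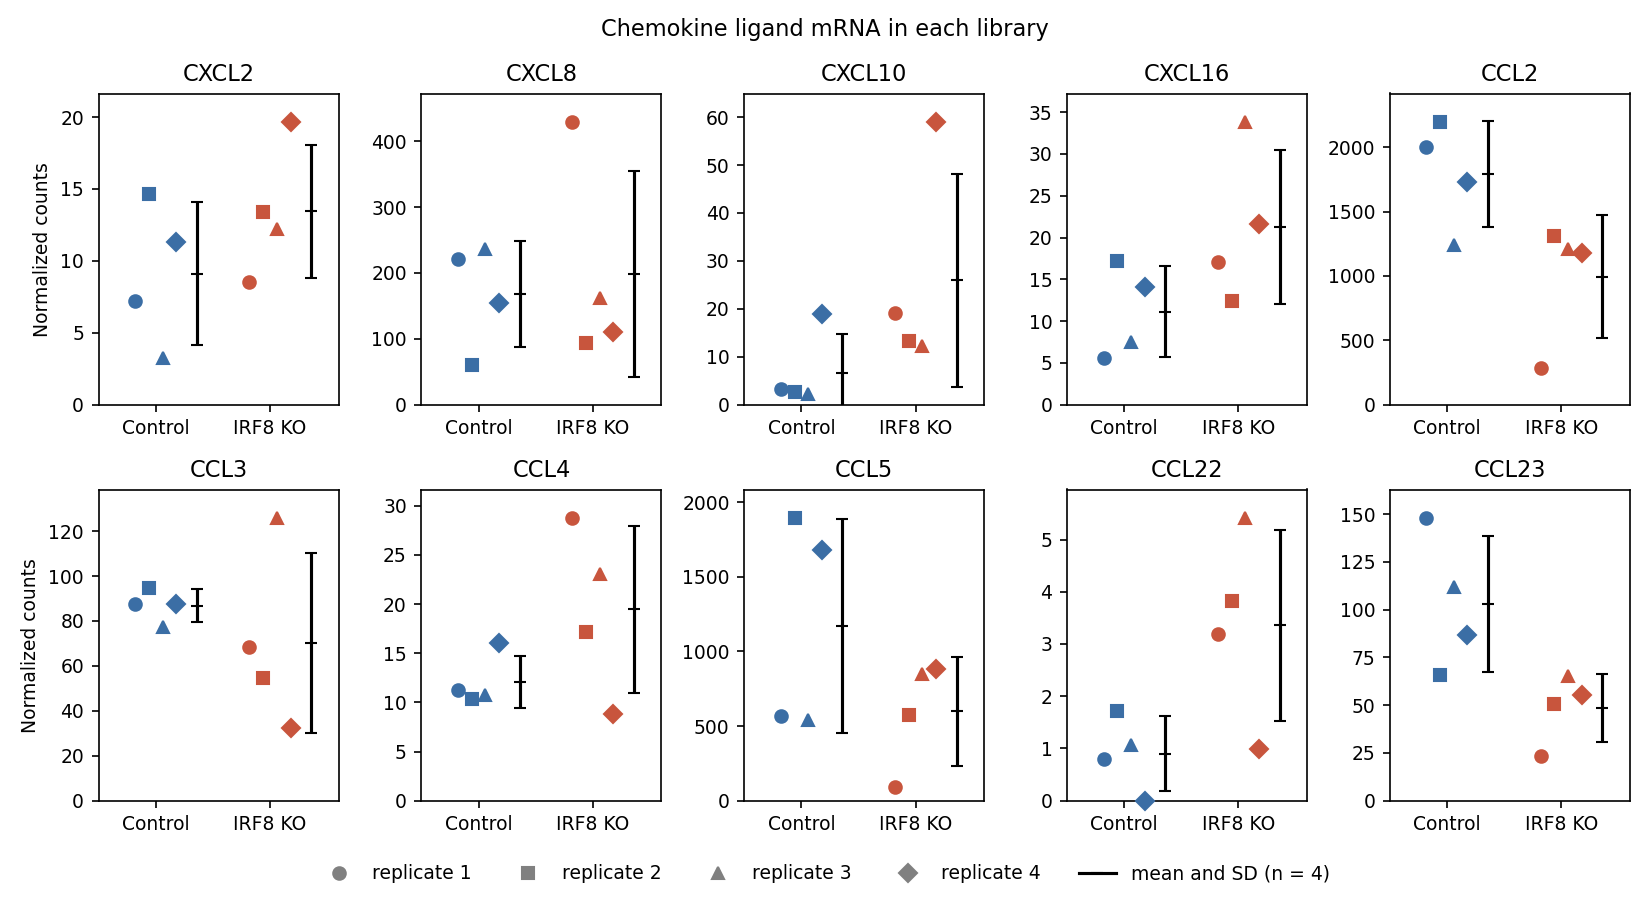
Normalized counts (linear vertical axes from 0, one panel per ligand with its own range) in the 4 Control libraries (blue) and 4 IRF8 KO libraries (red). Marker shapes give the replicate number, and black bars the mean and SD (n = 4); the lower bar of CXCL10 in Control would end below 0 and stops at the axis. CXCL10 is highest in replicate 4 of both groups, and only in CCL23 do the groups not overlap.

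CXCL10, the interferon-inducible ligand of CXCR3 that attracts activated T cells and NK cells, had the largest fold change among the 9. It was at 3.22, 2.59, 2.15 and 18.8 normalized counts in Control replicates 1 to 4 and at 19.2, 13.4, 12.2 and 59.0 in IRF8 KO replicates 1 to 4. Replicate 4 was the highest library of both groups, and because Control replicate 4 lay above KO replicates 2 and 3 the groups overlapped. The mean was 6.70 ± 8.10 in Control and 25.9 ± 22.3 in IRF8 KO (SD, n = 4 here and for all means below), a ratio of 3.87. The log2 difference was 1.98 (SE 0.72, 95% interval 0.35 to 3.61) with a limma adjusted p of 0.0933. By an exact permutation test (two-sided) on the 4 and 4 libraries, p was 0.0857, where 0.0286 is the smallest p that this design allows.

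Within same-numbered pairs CXCL10 was higher in the KO library each time, with log2 ratios of 2.258, 2.003, 2.067 and 1.598. It was the 1 tested ligand of the 10 that was higher in all 4 pairs, as were 24% of all genes tested. With the replicate number as a block, CXCL10 rose by 1.98 with an SE of 0.37 (limma adjusted p = 0.00727), and was the 1 ligand called higher where 14.2% of all genes were called higher. The same fit called 0 ligands lower, against 14.6% of all genes. With a Control mean of 6.70, CXCL10 passed the filter on low values only through the KO group. Its place among the tested ligands, and so its call under the block, depended on a difference. Without Control replicate 4, the unblocked log2 difference was 2.59 and passed the test (limma adjusted p = 0.0258). The level of CXCL10 is low, and its log2 difference was 1.38 when 5 was added to each value instead of 1. The difference in CXCL10 was therefore larger than the spread between same-numbered pairs, a matching that the values do not single out. The difference did not pass the test against the spread within groups.

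CXCL11, a ligand of the same receptor, was at 0, 13.8, 0 and 9.42 normalized counts in Control and at 0, 4.78, 1.35 and 26.6 in IRF8 KO, and had too low a mean to be tested. Its highest library, like that of CXCL10, was IRF8 KO replicate 4, but in replicate 2 it was higher in Control, where CXCL11 had its highest Control value. CXCR3, the receptor of both, was at 216.4, 26.7, 192.2 and 18.8 in Control and at 12.8, 2.87, 29.8 and 0.984 in IRF8 KO. Its log2 difference of -3.20 (SE 1.08) had a limma adjusted p of 0.0741, and with the replicate block it fell by 3.20 (limma adjusted p = 9.67e-04).

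The other CXC ligands were above the Control mean without passing a test. CXCL8 (interleukin-8), the main neutrophil attractant through CXCR1 and CXCR2, was at 220.4, 59.5, 236.3 and 154.4 normalized counts in Control and at 429.5, 93.7, 162.5 and 110.2 in IRF8 KO. Its pairs split, with higher KO values in replicates 1 and 2 and lower ones in replicates 3 and 4. The means were 168 ± 80.3 and 199 ± 156, and the log2 difference of 0.15 (SE 0.57, 95% interval -1.16 to 1.45) had a limma adjusted p of 0.902. Its sign turned without IRF8 KO replicate 1, where the log2 difference was -0.32, and without Control replicate 2, where it was -0.29. The interval allows a difference of more than 2-fold in either direction.

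CXCL2, which attracts neutrophils through CXCR2, was at 7.24, 14.7, 3.22 and 11.3 normalized counts in Control and at 8.53, 13.4, 12.2 and 19.7 in IRF8 KO. The groups overlapped and replicate 2 went against the other pairs. CXCL2 differed by 0.62 on the log2 scale (SE 0.48, limma adjusted p = 0.434). Its near relatives CXCL1 and CXCL3 share much of its sequence, so the split of reads among them is uncertain.

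CXCL16, a ligand of CXCR6 that is made as a transmembrane protein and also takes up oxidized lipoprotein, was at 5.63, 17.3, 7.52 and 14.1 normalized counts in Control. In IRF8 KO it was at 17.1, 12.4, 33.9 and 21.6, with the highest value in replicate 3. In replicate 2 the KO value was the lower, and the groups overlapped. The mean was 11.1 ± 5.47 in Control and 21.2 ± 9.21 in IRF8 KO, with a log2 difference of 0.90 (SE 0.46, 95% interval -0.13 to 1.94, limma adjusted p = 0.214).

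The CC ligands with the most reads had lower KO means. CCL2 (MCP-1), the attractant of monocytes through CCR2, was at 1999.9, 2197.8, 1241.4 and 1728.7 normalized counts in Control and at 281.3, 1311.4, 1206.6 and 1174.6 in IRF8 KO. Every KO library was below its same-numbered Control library, but KO replicate 2 lay just above Control replicate 3, so that the groups overlapped. The KO mean of 993 ± 478 was 55.4% of the Control mean of 1792 ± 414. The log2 difference was -1.04 (SE 0.47, 95% interval -2.12 to 0.03, limma adjusted p = 0.171), and the exact two-sided permutation p was 0.0571. IRF8 KO replicate 1 stood apart from the other KO libraries, and without it the log2 difference was -0.51. Replicate 3 differed by only -0.04 within its pair.

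CCL5 (RANTES), which attracts T cells, monocytes and eosinophils through receptors that include CCR1 and CCR3, was at 565.5, 1895.9, 540.2 and 1680.7 normalized counts in Control. In IRF8 KO it was at 91.6, 572.5, 851.8 and 881.4. Control replicates 2 and 4 were well above replicates 1 and 3, and the pair of replicate 3 went the other way from the rest. The KO mean of 599 ± 366 was 51.2% of the Control mean of 1171 ± 719, a log2 difference of -1.15 (SE 0.76, 95% interval -2.88 to 0.58) with a limma adjusted p of 0.347. Without IRF8 KO replicate 1 the difference was -0.40. With the replicate block and both libraries of replicate 3 left out, it was -1.76 and passed the test (limma adjusted p = 0.0215), a setting chosen after seeing the data.

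CCL23, a CC ligand of CCR1 that acts on monocytes and resting T cells, was at 148 normalized counts in Control replicate 1, 65.6 in replicate 2, 112 in replicate 3 and 86.6 in replicate 4. In IRF8 KO it was at 23.4, 50.7, 65.0 and 55.1. The groups did not overlap, by the margin between 65.6 in the lowest Control and 65.0 in the highest KO library. CCL23 was the 1 tested ligand lower without overlap, as were 13% of all genes tested, and 0 were higher without overlap, against 12.3%. The KO mean of 48.5 ± 17.8 was 47.1% of the Control mean of 103 ± 35.5. Its log2 difference of -1.10 (SE 0.38, 95% interval -1.97 to -0.23) had a limma adjusted p of 0.0829, and the exact two-sided permutation p was 0.0286, the smallest possible with 10 ligands examined this way. DESeq2 on the recovered reads gave a Benjamini-Hochberg adjusted p of 0.0336. Without IRF8 KO replicate 1 the difference was -0.79. CCL2 and CCL23 were the 2 ligands lower in all 4 pairs, where 23.8% of all genes tested were.

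CCL3 (MIP-1α) and CCL4 (MIP-1β), attractants of monocytes and T cells, had estimates of opposite sign. CCL3, a ligand of CCR1, was at 87.7, 94.9, 77.3 and 87.6 normalized counts in Control and at 68.2, 54.5, 125.9 and 32.5 in IRF8 KO. The Control libraries lay close together while the KO libraries spread to both sides of them, with an SD of 7.22 against 39.9. Its log2 difference was -0.46 (SE 0.38, limma adjusted p = 0.461). CCL4 was at 11.3, 10.4, 10.7 and 16.0 in Control and at 28.8, 17.2, 23.0 and 8.85 in IRF8 KO. Replicates 1 to 3 were higher in the KO, and replicate 4 was lower. The log2 difference of CCL4 was 0.55 (SE 0.41, limma adjusted p = 0.403). CCL3L1, a near-identical copy of CCL3, was at 12.1, 8.63, 10.7 and 3.77 in Control and at 27.7, 6.69, 47.4 and 11.8 in IRF8 KO. How reads were split between CCL3 and CCL3L1, and between CCL4 and its copy CCL4L2, is uncertain.

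CCL22, a ligand of CCR4 made by dendritic cells and macrophages, rested on 4 reads in all Control libraries and 12 in all IRF8 KO libraries. It was at 0.804, 1.73, 1.07 and 0 normalized counts in Control and at 3.20, 3.82, 5.42 and 0.984 in IRF8 KO. The ratio of reads per depth was 3.53 with an exact 95% interval of 1.07 to 15.0, which covers counting error only. Each KO library lay above its same-numbered Control library, but KO replicate 4 lay below Control replicates 2 and 3. The exact two-sided permutation p was 0.0857.

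**Figure D2:**
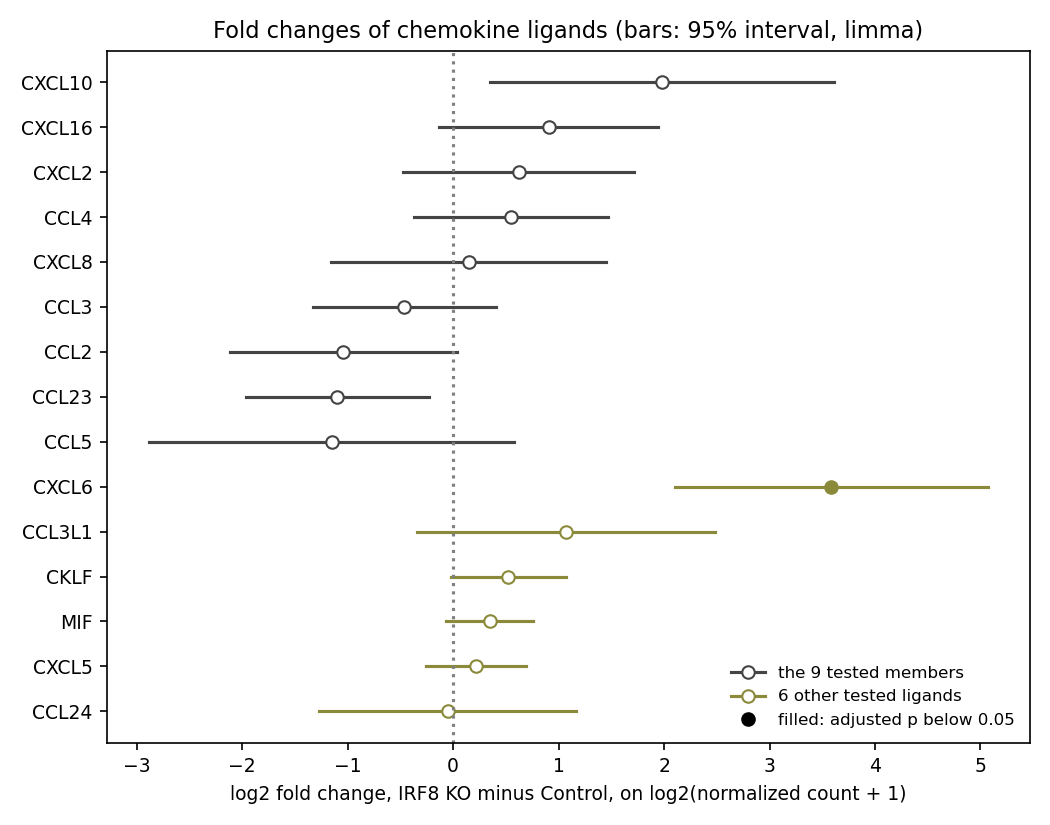
Log2 fold changes (horizontal axis, IRF8 KO minus Control on log2(normalized count + 1)) of the 9 tested ligands (dark) and of 6 other tested ligands (olive), with 95% intervals from limma as bars. CXCL6 is the filled point, at 3.59, with an adjusted p below 0.05, while CXCL10 at 1.98 and CCL23 at -1.10 are open although their intervals leave out 0.

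The members lie on 3 chromosomes (RefSeq, GRCh38.p14). CXCL8, CXCL2 and CXCL10, in this order on chromosome 4, all had fold changes above zero. On chromosome 17, in the order CXCL16, CCL2, CCL5, CCL23, CCL3 and CCL4, the first and the last had fold changes above zero and the 4 between them below. CCL22 is on chromosome 16. These are directions of estimates, of which none passed the unblocked test.

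The ligands also differed between libraries of the same group. In Control, CCL5 was higher in replicates 2 and 4 than in 1 and 3, while CXCL8, CCL23 and IRF8 were higher in replicates 1 and 3. In IRF8 KO, replicate 1 was lowest in CCL2, CCL5 and CCL23 and highest in CXCL8 and CCL4. Replicate 3 of the KO was highest in CXCL16, CCL3, CCL22 and CCL23. Libraries of the same number deviated together from the means of their groups, as did replicates 1 with 3 and 2 with 4 across the groups. Pairs by number are shown beside the groups, although the values do not single out that matching.

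CCL2 and CCL5 carried most of the ligands' reads, which are not corrected for gene length. Their share of the reads on the 10 ligands was 84.12, 93.89, 79.84 and 89.76% in Control replicates 1 to 4 and 38.42, 87.91, 82.38 and 86.97% in IRF8 KO replicates 1 to 4. KO replicate 1 was apart from all others. The summed level of the 10 ligands was 3049.7, 4360.2, 2231.5 and 3798.2 normalized counts in Control and 970.8, 2143.0, 2498.5 and 2363.9 in IRF8 KO. The groups overlapped in the sum, since KO replicates 3 and 4 lay above Control replicate 3.

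**Figure D3:**
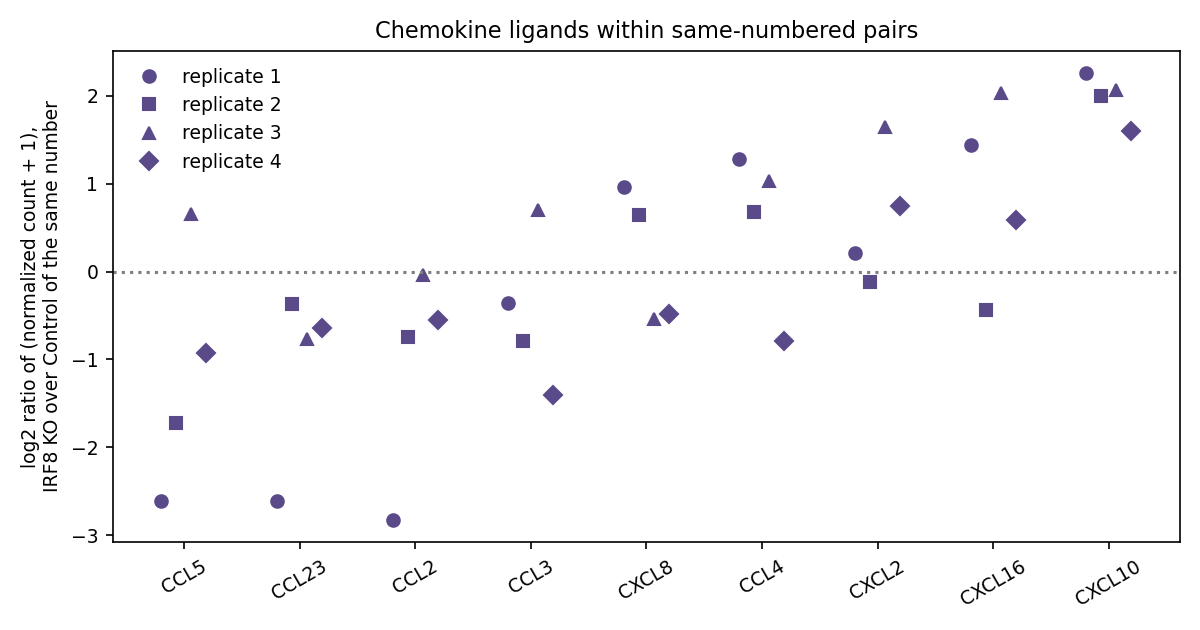
Log2 ratios of (normalized count + 1), IRF8 KO over Control of the same replicate number, for the 9 tested ligands ordered by fold change, with marker shapes for replicates 1 to 4. All 4 points lie above 0 for CXCL10 and below 0 for CCL2 and CCL23, and replicate 1 is the lowest point of CCL5, CCL2 and CCL23.

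Most other chemokine ligands had few or no reads in MV4-11. Of 38 further ligands in the table, 6 were tested, and 32 had a mean under 10, among them 7 at 0 in every library. Of the 6, 1 rose and 0 fell (limma), or 16.7% and 0% beside 8.65% and 9.56% of all genes tested. Fold changes were above zero in 5, with a median of 0.44. These counts and the median include CXCL6 and CCL3L1, whose entry depended on their KO values. CXCL6, a neutrophil attractant through CXCR1 and CXCR2, was at 0, 0, 1.07 and 0.942 normalized counts in Control and at 55.4, 7.65, 14.9 and 9.84 in IRF8 KO. All KO libraries lay above all Control libraries, and KO replicate 1 was far above the rest. CXCL6 had 2 reads in all Control libraries and 81 in all KO libraries, a ratio per depth of 47.6 with an exact 95% interval of 12.8 to 399.8 for counting error. It rose by 3.59 on the log2(normalized count + 1) scale (SE 0.65, limma adjusted p = 0.00611), a value that was 4.24 with a pseudocount of 0.5 and 1.99 with 5. CXCL6 passed the filter on low values only through the KO group, so its place among the 6 tested ligands depended on a difference, and without IRF8 KO replicate 1 its mean fell under 10 and it was not tested. With no filter, its limma adjusted p was 0.00431. CXCL6 lies on chromosome 4 between CXCL8 and CXCL2.

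MIF, an inflammatory cytokine that binds CXCR2 and CXCR4, was at 13601, 10451.6, 13808 and 10242.1 normalized counts in Control and at 14330.8, 12333.9, 20423.8 and 14596.6 in IRF8 KO. All pairs were higher in the KO, but the groups overlapped, and the log2 difference of 0.35 (SE 0.18) had a limma adjusted p of 0.23. CKLF, a chemokine-like factor, was at 437 ± 109 in Control and 623 ± 137 in IRF8 KO, a log2 difference of 0.52 (SE 0.24, limma adjusted p = 0.175). With the replicate block CKLF rose (limma adjusted p = 0.0343).

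Of the 11 receptors of these ligands, 8 were tested, and 0 rose and 2 fell, CCR2 and ACKR2, or 25% of the 8 where 9.56% of all genes fell. Under the replicate block 4 fell, CXCR3 and CCR1 being added, or 50% of the 8 where 14.6% of all genes fell. The median log2 difference of the 8 was -0.73. CCR2, the receptor of CCL2, was at 4729.4, 740.9, 4348.2 and 1802.1 normalized counts in Control and at 555.2, 724.5, 247.8 and 181.0 in IRF8 KO. The groups did not overlap, although replicate 2 was nearly level within its pair. CCR2 fell by 2.64 on the log2 scale (SE 0.66, limma adjusted p = 0.0242), and its adjusted p reached at most 0.0694 when single libraries were left out, above 0.05 without Control replicate 1 or 3 or IRF8 KO replicate 3 or 4.

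ACKR2, a scavenger that takes up CC chemokines without signaling through G proteins, was at 76.4, 92.3, 32.2 and 129 in Control and at 2.13, 10.5, 4.06 and 19.7 in IRF8 KO. It fell by 3.25 (SE 0.65, limma adjusted p = 0.00951), with no overlap between the groups. CCR1, the receptor of CCL3, CCL5 and CCL23, was at 3921 ± 1190 in Control and 2101 ± 728 in IRF8 KO. Its log2 difference of -0.90 (SE 0.27) had a limma adjusted p of 0.0513, and 0.0476 with the replicate block.

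Genes that cut or store chemokines or remove their messages formed a further list. Of 14 tested, 4 rose and 5 fell (limma), 28.6% and 35.7% of the list beside 8.65% and 9.56% of all genes, with a median log2 difference of -0.13. ELANE, the neutrophil elastase that trims and degrades chemokines, was at 2839.3 to 2921.8 in Control and at 24555 to 58195.8 in IRF8 KO, and rose by 3.64 (SE 0.23, limma adjusted p = 4.12e-05). CTSG, the granule protease cathepsin G that trims chemokines such as CCL23, rose by 3.30 (SE 0.56, limma adjusted p = 0.00456). SRGN, the granule proteoglycan serglycin that binds chemokines, rose by 2.57 (SE 0.44, limma adjusted p = 0.0048). ELANE and CTSG are also made together with MPO, a marker in the myeloid list that rose as well.

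The decay factors ZFP36, ZFP36L1 and ZFP36L2, which bind AU-rich elements and shorten the life of messages such as those of TNF and CXCL8, were all lower in the KO. ZFP36 (tristetraprolin) was at 1667.6, 1787.2, 1331.6 and 1302.2 in Control and at 826.9, 690.1, 651.4 and 556.8 in IRF8 KO, without overlap. It fell by 1.16 (SE 0.17, limma adjusted p = 0.00213). ZFP36L1 fell by 2.72 (limma adjusted p = 0.0144) and ZFP36L2 by 0.68 (limma adjusted p = 0.0147). MMP9, a protease that truncates CXCL8, fell by 2.12 (limma adjusted p = 0.0433), and its adjusted p rose to as much as 0.107 when single libraries were left out, above 0.05 in 6 of 8 cases. MMP9 lies on chromosome 20, where 345 tested genes had a median log2 difference of -0.92. The sulfotransferase TPST2, which modifies chemokine receptors, rose by 0.43 (limma adjusted p = 0.0486), a call lost in 7 of 8 cases with a library left out, and its relative TPST1 fell.

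Among 21 tested factors that switch chemokine genes on or off, 1 rose and 2 fell (limma), with a median log2 difference of -0.25. These are 4.76% and 9.52% of the list, close to or below the 8.65% and 9.56% of all genes tested, so the counts do not set the list apart. TNF, the cytokine that turns on CCL2, CXCL8 and CXCL10 through NF-kappaB, was at 9618.1, 4929.5, 7132.8 and 5510.8 normalized counts in Control and at 1077.4, 1222.5, 664.9 and 620.7 in IRF8 KO. It fell by 2.93 (SE 0.28, limma adjusted p = 3.25e-04), and each KO library was below each Control library. IRF5, an IRF family member downstream of Toll-like receptors, fell by 2.36 (SE 0.38, limma adjusted p = 0.00367). JUN, a subunit of AP-1, rose by 1.07 (SE 0.31, limma adjusted p = 0.0424), but the call was lost when Control replicate 1, 3 or 4 or IRF8 KO replicate 1, 3 or 4 was left out, with an adjusted p of at most 0.103. With the replicate block, 3 rose (14.3%, beside 14.2% of all genes) and 4 fell (19.0%, beside 14.6%), adding NFKB1, TNFAIP3, FOS and IRF1.

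**Figure D4:**
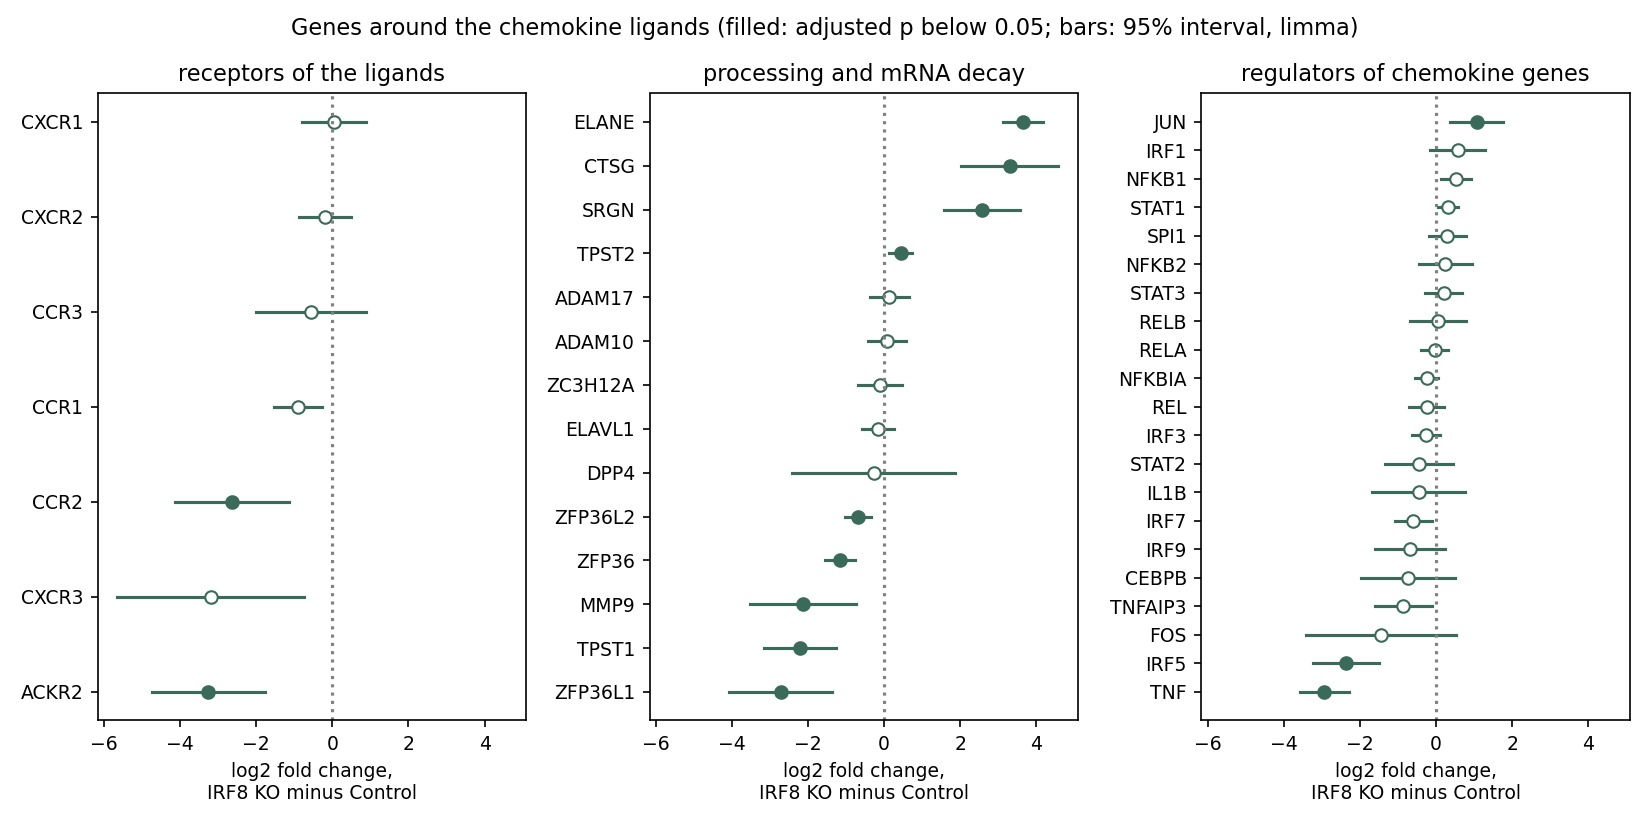
Log2 fold changes (IRF8 KO minus Control) with 95% limma intervals of 7 of the 8 tested receptors, the genes of processing and mRNA decay, and the regulators of chemokine genes. Filled points have an adjusted p below 0.05. ELANE, CTSG and SRGN lie furthest to the right in the middle panel, and TNF at -2.93 lies furthest to the left among the regulators.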

How the data were processed

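RNA from MV4-11 cells, 4 Control and 4 IRF8 KO libraries of the TruSeq Stranded mRNA kit, was sequenced by the authors, who aligned the reads to the GENCODE v32 transcriptome with RNA-Star, counted them per gene with featureCounts and normalized them with DESeq2. The deposited signal per gene and library is the read count divided by a size factor. The sources name this annotation release for the RNA-Seq and no genome build. The columns named WT with a number were taken as the Control replicates of that number, and 0 columns were left unassigned. The authors' deposited table of the comparison (group means, fold changes with their errors, test scores and p-values) was not used, and the ChIP-Seq samples were not analysed here.

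Each value was a whole number of reads within 0.01 after division by the value of 1 read, in 100% of values, which gave 39560072 to 65519047 reads on genes per library, with a median of 52233344. Genes near 10 normalized counts rest on about as many reads, so counting error is a large part of their spread. Of 19590 genes, 2197 were at 0 in every library.

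The groups were compared on log2(normalized count + 1) with limma 3.58.1 (R 4.3.3), with trended, robust prior variances, in the 13110 genes that averaged 10 or more over the 8 libraries, and with Benjamini-Hochberg adjustment over all of them. A pseudocount of 1 makes the fold changes of low genes smaller than the ratios of their values. Single ligands were also compared by an exact two-sided permutation test (SciPy 1.17.1). As alternatives, edgeR 4.0.16 and DESeq2 1.42.0 were run on the recovered reads, which edgeR and DESeq2 treat as counts, beside other pseudocounts, filters and scalings, a replicate block, and fits with a library left out. The scripts were tested on simulated data.

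Deviations of same-numbered Control and IRF8 KO libraries from their group means correlated with r of 0.368, 0.478, 0.452 and 0.502 for replicates 1 to 4. Replicates 1 and 3, and replicates 2 and 4, correlated across the groups to a similar degree (0.396 to 0.467), and all other combinations were negative. KO replicate 1 went slightly more with Control replicate 3 (0.406), and KO replicate 3 with Control replicate 1 (0.467). KO replicates 2 and 4 went most with their own number. The values thus show 2 sets, replicates 1 and 3 and replicates 2 and 4, and do not single out pairing by number. Matching by number in the pairs and the block was assumed, and the labels do not state it.

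The members and gene lists were chosen with earlier results of these data known. Named were all members, IRF8, the genes called in each further list (at most 8 by mean), further ligands with a mean of at least 100, and the 3 genes most correlated with each of the 3 members with the highest means. CCR1, CXCR3, CXCL11, CCL3L1, CKLF, LYZ and marker genes that were not called were named after their values were seen. Of the further lists, 1 receptor and 1 marker are not reported here. Promoter sequences are from RefSeq (GRCh38.p14).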

Additional observations from a re-analysis of the deposited data

Results flagged for a closer look

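A library was looked at again where its gap to the nearest library of its group, divided by the range of the group, was above Dixon's 95% critical value for 4 samples. This held in 5 of 24 groups of 4. The rate of 1 in 20 by chance holds for independent groups of normal values. These are untransformed counts from the same 8 libraries, so the 5 cannot be set against that rate. CXCL10 met it in both groups through replicate 4, with a quotient of 0.936 in Control (18.8 normalized counts, the others at most 3.22) and of 0.851 in IRF8 KO (59.0, the others at most 19.2). CCL2 met it in IRF8 KO through replicate 1, at 281.3 normalized counts, with a quotient of 0.867. CXCL6 met it in IRF8 KO through the same library, at 55.4, with a quotient of 0.848. CCL4 met it in Control through replicate 4, at 16.0, with a quotient of 0.839, a group in which the values rest on few reads.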

How the results depend on the processing

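Over the members, 187 values kept their direction and their side of the threshold under the alternatives, 8 passed it and 4 turned. CXCL8, at -0.32 to 0.41 with single libraries left out, turned to -0.29 without Control replicate 2, -0.32 without IRF8 KO replicate 1, and -0.12 and -0.020 with the replicate block and without replicate 1 or 2 of both groups. With the replicate block, 1857 genes were called higher and 1912 lower, beside 1134 and 1253 without it, and 1769 and 1913 by edgeR with the block. Of the members, the block called 1 higher (CXCL10), as did edgeR with it (adjusted p = 0.00667) and the block without replicate 1, 2 or 3 of both groups. With both libraries of replicate 4 left out CXCL10 and CXCL2 were not tested, their means being under 10. The block changed no other member's call. DESeq2 called 1 member lower (CCL23), as did the block without replicate 3 (CCL5). Of the other ligands, 2 were called higher with the block (limma, edgeR, and limma without replicate 2), and 0 with a mean of at least 100. Receptors called lower were 1 with a mean of at least 100 and 4 with DESeq2, with the block, by edgeR with the block and by the block without replicate 2. Regulators called higher were 3 with DESeq2 or the block, 2 by edgeR with the block or by the block without replicate 1 or 2, and 0 by the block without replicate 4. Regulators called lower were 4 with the block or the block without replicate 3, and 5 without replicate 1. With single libraries left out, the counts ranged from 0 to 1 for members higher, 0 to 1 for other ligands higher, 1 to 3 for receptors lower, 0 to 2 for regulators higher and 2 to 3 for regulators lower. Fits with the block by edgeR or with replicate numbers left out were chosen after seeing the data. At 4 libraries a group and the spread seen here, the 95% interval of each of the 9 tested members allows a change of more than 2-fold. The cause of these dependences was not tested.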

Other observations

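The genes whose pattern over the 8 libraries was most like that of the 3 members with the highest means are given as a description, on log2(normalized count + 1), where all points share the same libraries and groups. For CCL2 they were GPSM1 (Pearson r = 0.984, a regulator of G protein subunits), RTP4 (0.973, an interferon-induced receptor transport protein) and VWA1 (0.970, an extracellular matrix protein). For CCL5 they were GBP5 (0.983, an interferon-induced guanylate-binding protein), SLC29A2 (0.982, a nucleoside transporter) and APOBEC3H (0.980, a cytidine deaminase). For CXCL8 they were DOCK4 (0.971, an exchange factor for Rac), SHTN1 (0.961) and NXT2 (0.957, an mRNA export factor). All 9 of these genes had limma adjusted p-values above 0.05 between the groups, from 0.0764 for VWA1 to 0.946 for DOCK4. The 10 members took 95.63 to 97.44% of the reads on chemokine ligands other than MIF and CKLF in Control, and 83.12 to 94.56% in IRF8 KO.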
